A study of Homo sapiens with 12 samples.

Results

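MGP, RCVRN, MIA, CXCR6, HHEX, KRCC1 and CHRNA10 are 7 of the 23619 genes measured by RNA sequencing in MOLT4, an established human line of T-cell acute lymphoblastic leukemia. They were picked by name from the deposited table because, in those same libraries, they stood higher with THAL-SNS-032 than with DMSO or far above SNS-032. All 7 were found, and all were among the 11381 genes that averaged at least 1 FPKM across the 12 libraries and so were tested. FPKM scales the fragments of a gene to transcript length and library size, so levels of different genes can be set side by side. Cells were treated for 6 h with 250 nM THAL-SNS-032, 250 nM SNS-032, 250 nM NVP-2 or 0.1% DMSO, the solvent, with 3 libraries per group. Spike-in RNA (ERCC) went in at lysis, and libraries were made from poly(A) RNA with a stranded kit. Separate cultures are not stated for the 3 libraries of any group, so the spread behind each p-value is that between libraries and may be technical. One of the 7 goes against the description as genes that rose over DMSO: KRCC1 was far below its DMSO level with every compound, and it belongs with the others through its distance from SNS-032.

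CDK9, the kinase of the elongation factor P-TEFb, phosphorylates RNA polymerase II and its pausing factors, and transcripts with short lives drop quickly once it is blocked. SNS-032 inhibits CDK9 together with some other cyclin-dependent kinases, NVP-2 is a CDK9 inhibitor, and THAL-SNS-032 joins SNS-032 to a thalidomide-type ligand that recruits the cereblon ubiquitin ligase, a design meant to have CDK9 degraded. The 7 genes come from unrelated families. MGP encodes matrix Gla protein, a vitamin K-dependent inhibitor of calcification, and RCVRN encodes recoverin, a calcium sensor of photoreceptors. MIA encodes a small secreted protein of cartilage and melanoma cells, CXCR6 the receptor for the chemokine CXCL16, HHEX a homeodomain transcription factor of blood progenitors, liver and thyroid, and CHRNA10 a subunit of the nicotinic acetylcholine receptor of cochlear hair cells.

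The 5 genes with a promoter window ranged widely in CpG content before the annotated start. RefSeq (GRCh38.p14) windows of the 250 bases before the annotated start were held for 5 of the 7 genes, 7 windows in all, with none for MGP or RCVRN. The windows with the most and the fewest CpGs and a pair in between are printed to show this range, 5′ to 3′ on the strand of the gene, with each CpG in capitals.
HHEX: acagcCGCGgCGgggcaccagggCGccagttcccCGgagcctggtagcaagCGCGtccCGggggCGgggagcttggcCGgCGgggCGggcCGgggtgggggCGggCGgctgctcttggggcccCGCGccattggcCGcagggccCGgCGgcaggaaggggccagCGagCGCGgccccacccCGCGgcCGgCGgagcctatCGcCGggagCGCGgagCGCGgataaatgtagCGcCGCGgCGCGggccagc
KRCC1: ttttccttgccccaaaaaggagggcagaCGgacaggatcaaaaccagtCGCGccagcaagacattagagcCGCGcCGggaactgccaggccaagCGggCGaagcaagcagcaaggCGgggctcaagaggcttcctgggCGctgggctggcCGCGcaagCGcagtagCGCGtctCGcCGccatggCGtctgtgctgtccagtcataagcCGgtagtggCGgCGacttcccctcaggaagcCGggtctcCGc
CXCR6: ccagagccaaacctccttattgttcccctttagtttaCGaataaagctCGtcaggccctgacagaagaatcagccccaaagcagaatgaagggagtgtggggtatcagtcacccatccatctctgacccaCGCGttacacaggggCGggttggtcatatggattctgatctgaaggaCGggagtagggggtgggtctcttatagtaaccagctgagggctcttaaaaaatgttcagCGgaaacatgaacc
CHRNA10: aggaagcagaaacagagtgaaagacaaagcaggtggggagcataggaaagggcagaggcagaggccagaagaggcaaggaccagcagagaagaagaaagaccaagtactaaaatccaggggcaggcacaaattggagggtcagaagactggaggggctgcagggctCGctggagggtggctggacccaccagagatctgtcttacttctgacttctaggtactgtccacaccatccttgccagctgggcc
The HHEX window (chr10:92689705-92689954, plus strand) held 38 CpGs and 81.2% G or C, and 96.7% of the 35116 windows in the RefSeq table held fewer CpGs. KRCC1 (chr2:88055784-88056033, minus strand) had 23, at the upper quartile of all windows, which is also 23. CXCR6 has a pair of annotated starts, and the window of the first (chr3:45943214-45943463, plus strand) held 7, under the median of 11. The other MIA window, not printed, held 3. CHRNA10 (chr11:3671385-3671634, minus strand) held 1, and so did the first of the MIA windows and the other CXCR6 window, where 6.06% of all windows held fewer. The letters TATAAA, searched on both strands, were in none of the 7 windows and in 10.7% of all windows. GGGCGG on either strand was found 3 times before HHEX, once in the first CXCR6 window and once in the other MIA window, in no window of KRCC1 or CHRNA10, and in 42.6% of all windows. CCAAT on either strand was found once before HHEX, once before CHRNA10 and once in each MIA window, and 32% of all windows hold it. No match of one motif overlapped a match of another in these windows. These are matches of letters and say nothing of which factors bind.

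On the deposited scale most transcripts were lower after each compound, which is the setting in which the 7 genes have to be read. The median difference from DMSO over all tested genes was -1.90 for THAL-SNS-032, -1.92 for SNS-032 and -2.54 for NVP-2, in units of log2(FPKM + 1). With THAL-SNS-032, 1.37% of tested genes were called higher than DMSO and 94.8% lower, at a Benjamini-Hochberg adjusted p under 0.05 in limma. The spike-ins were nearly level, with library medians from -0.02 to 0.13 relative to the DMSO mean on the log2 scale. How they entered the deposited scale is not given, so their level may follow from the scaling itself. Fewer cells per library and less RNA per cell cannot be told apart in bulk RNA. The SNS-032 libraries differed most among themselves, with gene medians from -2.61 to -1.87 relative to DMSO, and replicate 1 was the low one. All 23 T-lineage markers were above the filter, and their summed level was 1892 to 2139 FPKM with THAL-SNS-032, 1142 to 1927 with SNS-032, 932 to 1117 with NVP-2 and 6312 to 7758 in DMSO. In each library 4199 names shared a single low value, between 0.0910 and 0.104 FPKM by library, which is called the floor here although 230 to 4542 names lay below it in a library.

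MGP stood furthest above DMSO of the 7 with THAL-SNS-032, from a DMSO level near the floor. Matrix Gla protein binds calcium through its carboxylated glutamate residues and keeps cartilage and vessel walls from mineralizing. The THAL-SNS-032 libraries held 14.5, 16.8 and 14.7 FPKM, the SNS-032 libraries 0.885, 1.62 and 1.21, the NVP-2 libraries 0.377, 0.212 and 0.216, and the DMSO libraries 0.192, 0.183 and 0.197. Every THAL-SNS-032 library was above every SNS-032 library, every SNS-032 library was above every NVP-2 and DMSO library, and the NVP-2 and DMSO values lie too near the floor to be ordered. Means were 15.3 ± 1.29 FPKM with THAL-SNS-032, 1.24 ± 0.367 with SNS-032 and 0.190 ± 0.00702 in DMSO (SD, n = 3 each). The ratio to the SNS-032 mean is 12.4, and that to the DMSO mean, 80.5, rests on a level near the floor. On the log2(FPKM + 1) scale, which understates changes of low genes, THAL-SNS-032 exceeded DMSO by 3.78 (SE 0.13), rank 15 among all tested genes, and exceeded SNS-032 by 2.88, rank 9. Both contrasts chose the gene, so these are descriptions without a test.

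RCVRN followed the same order with a larger share of its level already present with SNS-032. Recoverin holds a receptor kinase of rods and cones inactive while calcium is high. Its levels were 11.5, 13.0 and 10.3 FPKM with THAL-SNS-032, 2.04, 3.48 and 4.22 under SNS-032, 0.429, 0.563 and 0.439 with NVP-2, and 0.487, 0.326 and 0.781 in DMSO. NVP-2 and DMSO overlapped, both SNS-032 and THAL-SNS-032 lay wholly above them, and every THAL-SNS-032 library was above every SNS-032 library. The THAL-SNS-032 mean of 11.6 ± 1.35 FPKM was 21.8 times the DMSO mean of 0.532 ± 0.230 and 3.57 times the SNS-032 mean of 3.25 ± 1.11 (SD, n = 3 each). On the log2(FPKM + 1) scale THAL-SNS-032 was 3.04 above DMSO, and SNS-032 was 1.45 above it (SE 0.18), without a test.

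MIA stood nearest to SNS-032 of the 7. The protein, named melanoma inhibitory activity, is secreted by chondrocytes and melanoma cells. THAL-SNS-032 libraries had 8.99, 10.8 and 9.99 FPKM, SNS-032 libraries 4.70, 7.13 and 4.09, NVP-2 libraries 0.326, 0.0765 and 0.319, and DMSO libraries 0.487, 0.183 and 0.710. One NVP-2 library and no DMSO library lay below the floor value, and these groups overlapped, whereas every library of SNS-032 and THAL-SNS-032 was above both. The mean with THAL-SNS-032, 9.93 ± 0.912 FPKM, was 1.87 times that with SNS-032, 5.31 ± 1.61, and 21.6 times that in DMSO, 0.460 ± 0.265 (SD, n = 3 each). In log2(FPKM + 1), THAL-SNS-032 was 0.82 above SNS-032 and 2.92 above DMSO, and SNS-032 was 2.10 above DMSO (SE 0.18), again as a description.

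CXCR6 exceeded 1 FPKM in the 3 THAL-SNS-032 libraries and in no other library. It is the receptor for CXCL16, a chemokine made as a membrane-bound molecule, and marks effector T cells and natural killer cells. Its levels were 5.78, 8.05 and 6.32 FPKM with THAL-SNS-032, 0.457, 0.771 and 0.872 under SNS-032, 0.0761, 0.0620 and 0.121 with NVP-2, and 0.574, 0.218 and 0.368 in DMSO. SNS-032 overlapped DMSO, and the NVP-2 libraries were close to the floor and below every DMSO library. The mean of 6.72 ± 1.18 FPKM with THAL-SNS-032 compares with 0.700 ± 0.216 with SNS-032 and 0.387 ± 0.179 in DMSO (SD, n = 3 each), ratios of 9.60 and 17.4. The corresponding log2(FPKM + 1) differences were 2.18 and 2.47 (SE 0.14).

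HHEX was the only one of the 7 in which NVP-2 libraries stood above SNS-032 libraries in mean level. HHEX represses transcription in early blood and endoderm, and in mouse T cells Hhex is a known target of the oncogene Lmo2. The libraries held 6.86, 8.07 and 7.997 FPKM with THAL-SNS-032, 0.756, 0.932 and 2.01 under SNS-032, 1.82, 2.42 and 2.16 with NVP-2, and 1.45, 1.77 and 1.77 in DMSO. SNS-032 replicate 3, at 2.01 FPKM, overlapped NVP-2 and lay above all DMSO libraries, while the other two were below them. The group means were 7.64 ± 0.677 FPKM with THAL-SNS-032, 1.23 ± 0.677 with SNS-032, 2.13 ± 0.299 with NVP-2 and 1.66 ± 0.183 in DMSO (SD, n = 3 each). THAL-SNS-032 stood 1.70 above DMSO and 1.99 above SNS-032 on the log2(FPKM + 1) scale (SE 0.18).

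KRCC1 was the abundant member in untreated cells and the one that was lower than DMSO with every compound. It encodes a lysine-rich coiled-coil protein. THAL-SNS-032 libraries had 10.3, 13.0 and 9.78 FPKM, SNS-032 libraries 0.948, 2.07 and 1.10, NVP-2 libraries 1.17, 1.33 and 0.992, and DMSO libraries 41.2, 45.2 and 45.5. SNS-032 and NVP-2 overlapped, THAL-SNS-032 lay above both, and DMSO lay above all. The mean was 11.01 ± 1.73 FPKM with THAL-SNS-032, 1.37 ± 0.612 with SNS-032, 1.16 ± 0.167 with NVP-2 and 43.95 ± 2.40 in DMSO (SD, n = 3 each). In log2(FPKM + 1) the difference from DMSO was -1.91 with THAL-SNS-032, close to the median of all tested genes, and it became 0.34 when each library was centred on its own median, where the median of all tested genes is 0.36. With SNS-032 it was -4.27, rank 11302 of 11381 from the top. THAL-SNS-032 exceeded SNS-032 by 2.36 (SE 0.18), rank 15.

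CHRNA10 combined the patterns, with DMSO between THAL-SNS-032 and SNS-032. The subunit assembles with the product of CHRNA9 into the receptor through which efferent nerves damp cochlear hair cells. Levels were 8.69, 10.1 and 8.08 FPKM with THAL-SNS-032, 0.807, 1.67 and 1.11 under SNS-032, 0.249, 0.321 and 0.318 with NVP-2, and 2.46, 2.07 and 2.59 in DMSO. No pair of groups overlapped, in the order THAL-SNS-032, DMSO, SNS-032, NVP-2. The place of DMSO depended on scaling. On median-centred libraries SNS-032 was 1.54 and NVP-2 1.58 above it, and on quantile-normalized libraries 0.65 and 0.14 (adjusted p = 0.061 for NVP-2, limma). Both scalings came after 1 was added, which compresses falls to low levels. In FPKM the NVP-2 mean was 0.125 of the DMSO mean. The THAL-SNS-032 mean, 8.94 ± 1.01 FPKM, was 3.77 times the DMSO mean, 2.37 ± 0.270, and 7.47 times the SNS-032 mean, 1.197 ± 0.440 (SD, n = 3 each). These ratios correspond to 1.56 and 2.19 on the log2(FPKM + 1) scale (SE 0.15).

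**Figure D1:**
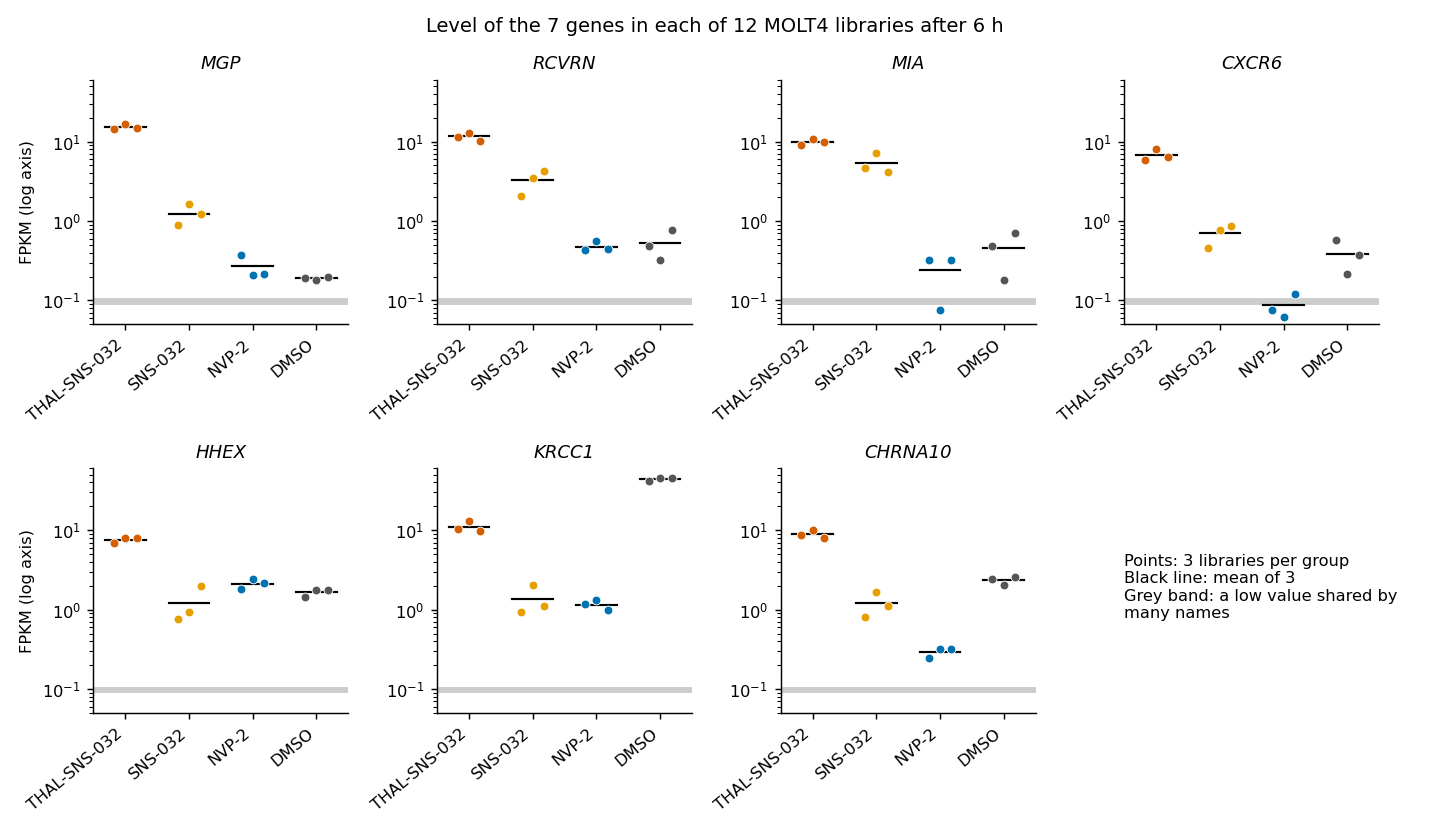
FPKM on a log axis for each of the 7 genes in the 12 libraries, by group from THAL-SNS-032 to DMSO. Points are libraries, black lines are means of 3, and the grey band is the low value that many names share. THAL-SNS-032 is the highest group in every panel except KRCC1, where the DMSO libraries at 41.2 to 45.5 FPKM lie above it.

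Side by side, the 7 genes had levels of 6.72 to 15.3 FPKM with THAL-SNS-032 but spread from 0.190 to 43.95 FPKM in DMSO. Every THAL-SNS-032 library was above every DMSO library for 6 genes and below for KRCC1, where over all tested genes 1.32% were wholly above and 95.9% wholly below. Against SNS-032 all 7 were wholly above, as were 25.5% of tested genes, and limma called 13.4% of tested genes higher and 16.7% lower. These shares rest on single libraries: the 1525 genes called higher became 614 without THAL-SNS-032 replicate 2 and 2765 without SNS-032 replicate 2, and the 1900 called lower became 3424 without SNS-032 replicate 1. Since the choice used both contrasts, nothing is read from the members' counts there. A step of 2 or more above SNS-032 on the log2(FPKM + 1) scale was seen for MGP, KRCC1, CHRNA10 and CXCR6, 4 of the 7, and for 0.202% of tested genes. Above DMSO such a step was seen for 4 of the 7 with THAL-SNS-032 (0.483% of tested genes), for 1 with SNS-032 (0.729%) and for 0 with NVP-2 (0.290%). Against NVP-2, all 7 were wholly above with THAL-SNS-032, by 1.47 for HHEX to 3.69 for MGP, with 6 at 2 or more. Of all tested genes, 84.7% were wholly above NVP-2 and 2.49% wholly below, 70.0% were called higher and 0.993% lower, and 1.29% had a step of 2 or more. SNS-032 against DMSO separated the 7: MGP, RCVRN and MIA were wholly above, CXCR6 and HHEX overlapped, and KRCC1 and CHRNA10 were wholly below, beside 1.16% wholly above and 94.8% wholly below, and 1.54% called higher and 94.6% lower, among all tested genes. The comparisons with DMSO use the same DMSO libraries, and those of THAL-SNS-032 the same THAL-SNS-032 libraries, so their values for a gene are not independent.

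**Figure D2:**
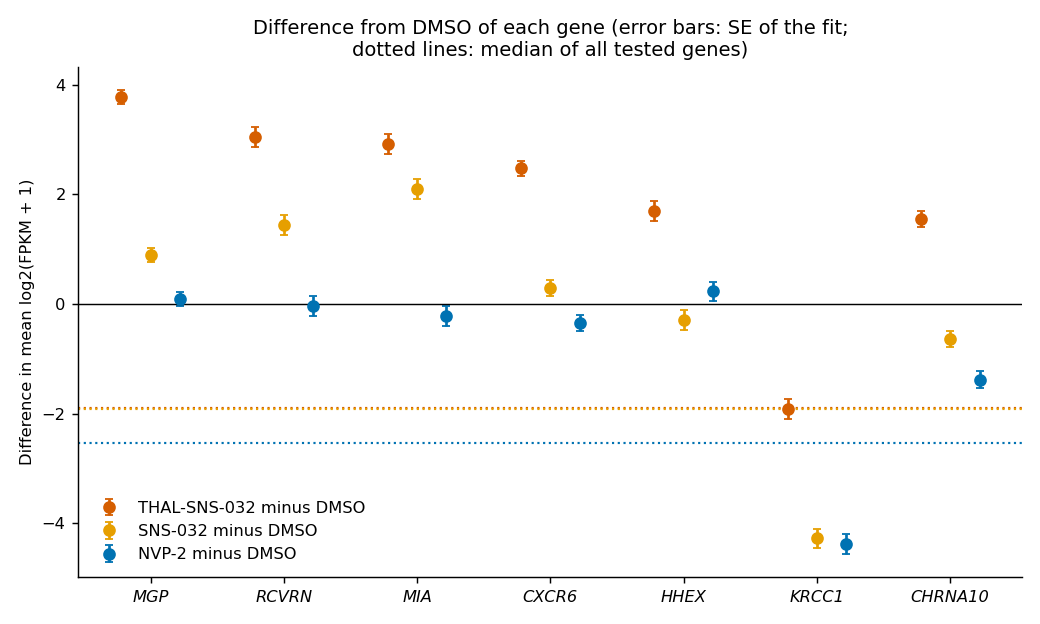
Difference from DMSO in mean log2(FPKM + 1) of each of the 7 genes with THAL-SNS-032, SNS-032 and NVP-2. Error bars are the SE of the fit, and dotted lines are the medians over all tested genes, -1.90, -1.92 and -2.54. MIA has both THAL-SNS-032 and SNS-032 far above 0, while KRCC1 has THAL-SNS-032 on its dotted line and the other compounds below theirs.

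NVP-2 against DMSO is the contrast that did not enter the choice, although its DMSO libraries did. MGP and CXCR6 reached the filter only through their THAL-SNS-032 libraries, which leaves 5 genes to test. RCVRN and MIA averaged under 1 FPKM with NVP-2 (0.477 and 0.240) and in DMSO (0.532 and 0.460). They passed through THAL-SNS-032 and SNS-032. On the log2(FPKM + 1) scale they could fall by at most 0.60 and 0.53, so nothing is read from their tests. None of the 5 rose with NVP-2 on the deposited scale, also at an unadjusted p under 0.05 in limma. KRCC1 and CHRNA10 fell and HHEX was not called, beside 0.448% of all tested genes called higher and 97.1% called lower. RCVRN and MIA were not called either, but they had little room to fall and are not set beside these shares. KRCC1 fell by 4.38 on the log2(FPKM + 1) scale (adjusted p = 7.904e-12), to 1.16 FPKM with NVP-2 against 43.95 in DMSO. CHRNA10 fell by 1.38 (adjusted p = 2.114e-07), to 0.296 ± 0.0408 FPKM with NVP-2 against 2.37 ± 0.270 in DMSO (SD, n = 3 each). All 3 NVP-2 libraries were below all 3 DMSO libraries for both genes. RCVRN differed by -0.04 (adjusted p = 0.8203), MIA by -0.23 (adjusted p = 0.2397) and HHEX by 0.23 (adjusted p = 0.2101). The NVP-2 libraries of HHEX were wholly above those of DMSO, as were 0.431% of tested genes, whereas 97.8% were wholly below. CXCR6 and MGP are given without a test. CXCR6 averaged 0.0864 ± 0.0309 FPKM with NVP-2 and 0.387 ± 0.179 in DMSO (SD, n = 3 each), with NVP-2 libraries below or near the shared low value, and MGP differed by 0.09 on the log2(FPKM + 1) scale. With each library centred on its own median, 4 of the 5 were called higher with NVP-2 and KRCC1 lower, where 59.7% of all tested genes were called higher and 28.1% lower. The NVP-2 library medians lay at -2.96 relative to DMSO on average, and centring takes this gap out of every gene. A gene near 0 in both groups, such as RCVRN or MIA, is then called higher without having risen in FPKM.

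Across the 12 libraries the log2(FPKM + 1) levels of the 6 genes other than KRCC1 were correlated, with Pearson's r from 0.53 for MIA and HHEX to 0.98 for MGP and CXCR6 over 15 pairs. KRCC1 had r from -0.08 with MIA to 0.58 with CHRNA10. The groups are the main source of this spread and the genes were chosen for a high level in one of them, so the values describe the libraries and carry no test. For each gene the 3 tested genes with the most similar profile were taken from 10457 candidates. SLC6A20, an amino acid transporter, led for both MGP (r = 0.98) and RCVRN (r = 0.99). Its levels were 6.72, 8.45 and 7.63 FPKM with THAL-SNS-032, 1.01, 1.78 and 1.62 under SNS-032, 0.102, 0.101 and 0.102 with NVP-2, and 0.190, 0.182 and 0.173 in DMSO, so that SNS-032 lay between the extremes as it did for MGP. TP53AIP1, a mitochondrial target of p53, was the third for MGP, after CXCR6. PYGM, the glycogen phosphorylase of muscle, was nearest to MIA (r = 0.99), with means of 10.1 ± 0.732 FPKM with THAL-SNS-032, 5.47 ± 1.43 with SNS-032, 0.620 ± 0.0774 with NVP-2 and 0.896 ± 0.146 in DMSO (SD, n = 3 each). CRABP2, which carries retinoic acid, came next for MIA, at 7.79 ± 0.631 FPKM with THAL-SNS-032, 5.23 ± 1.46 with SNS-032 and 0.849 ± 0.164 in DMSO (SD, n = 3 each). PYY2 was nearest to CXCR6 (r = 0.99) and C8G, a subunit of complement component 8, nearest to CHRNA10 (r = 0.97). HHEX had no gene over 0.9, and its nearest outside the 7 was SPEF1 at 0.87. KRCC1 had 4042 genes over 0.9, led by CTSO, the protease cathepsin O, at 0.99. RASL11A, a Ras-like protein named beside these genes because it also stood above DMSO, had 23.7 ± 2.25 FPKM with THAL-SNS-032, 26.03 ± 6.596 with SNS-032, 7.07 ± 0.531 with NVP-2 and 1.26 ± 0.436 in DMSO (SD, n = 3 each). SNS-032 and THAL-SNS-032 overlapped for RASL11A. They separated for all 7 genes, but that contrast entered the choice of the 7.

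Neighbouring genes were looked up by position and not by level (GENCODE 29, GRCh38, for order and distance, since the files use hg19). Not all are printed: ARHGDIB and C12orf60 were picked for printing after values were seen, and RHOG, PGAP2 and LZTFL1 are among those left out. MGP lies on the minus strand of chromosome 12, and the gene before it on that strand, ERP27, ended 28.1 kb away. ERP27 encodes a chaperone-like protein of the endoplasmic reticulum. It had 11.1, 14.8 and 11.7 FPKM with THAL-SNS-032, 3.67, 8.44 and 6.70 under SNS-032, 1.03, 1.61 and 1.23 with NVP-2, and 2.87, 3.43 and 2.54 in DMSO, and no groups overlapped. ERP27 rose by 1.77 over DMSO with THAL-SNS-032 (SE 0.22, adjusted p = 1.451e-06, limma) and by 0.83 with SNS-032 (adjusted p = 0.002097), and THAL-SNS-032 exceeded SNS-032 by 0.95 (adjusted p = 0.004872). With NVP-2 it fell by 0.79 (adjusted p = 0.002928), a direction that turned when libraries were centred on their medians. ARHGDIB, the next gene upstream on the strand and one abundant in lymphocytes, was 1.02 below DMSO with THAL-SNS-032 (adjusted p = 0.0001884) and differed from SNS-032 by 0.10 (adjusted p = 0.7084). C12orf60, on the opposite strand across MGP, had 0.326 ± 0.0505 FPKM with THAL-SNS-032 and 3.36 ± 0.184 in DMSO (SD, n = 3 each), 1.72 lower (adjusted p = 1.089e-09).

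The neighbours looked up were the nearest and next gene on the same strand, the nearest on either strand and any overlapping gene. Other genes of each region were not looked up. Among the neighbours tested, ERP27 alone rose over DMSO with THAL-SNS-032 on the deposited scale. On median-centred libraries ARHGDIB, GAS7, RAB4B, SNRPA, FYCO1, NUP98 and RGPD2 were among the neighbours also called higher, as were 57.2% of tested genes. GAS7, a cytoskeletal regulator that ends 4.99 kb before RCVRN on chromosome 17, had 18.3, 20.6 and 18.5 FPKM with THAL-SNS-032, 11.6, 20.8 and 19.8 under SNS-032, and 33.3, 35.6 and 39.7 in DMSO. It fell by 0.88 against DMSO (adjusted p = 0.0004511, limma), less than the median gene, and differed from SNS-032 by 0.17 (adjusted p = 0.5042). SNRPA, a U1 snRNP protein that ends 6.26 kb before MIA on chromosome 19, was 1.84 lower with THAL-SNS-032 than in DMSO and 0.26 above SNS-032 (adjusted p = 0.3277). RAB4B, an endosomal GTPase that starts 0.725 kb after MIA, was 0.79 below DMSO (adjusted p = 0.00102) and 0.37 above SNS-032 (adjusted p = 0.1539). The annotated read-through MIA-RAB4B stayed between 0.0908 and 0.107 FPKM in the THAL-SNS-032 and SNS-032 libraries. CCR9, the chemokine receptor of thymocytes 37.8 kb before CXCR6 on chromosome 3, went the other way, at 5.68, 7.11 and 5.43 FPKM with THAL-SNS-032, 18.6, 38.9 and 32.2 under SNS-032, and 81.5, 90.8 and 101 in DMSO. It fell by 2.08 against SNS-032 (adjusted p = 6.572e-06) and fell by 3.70 against DMSO.

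KIF11, the mitotic kinesin 34.6 kb before HHEX on chromosome 10, was 2.86 below DMSO and 0.76 below SNS-032 (adjusted p = 0.01006 in limma, but 0.107 after scaling to equal ERCC medians and 0.0553 with only the 6 libraries compared). EXOC6, an exocyst subunit after HHEX, was 0.49 above SNS-032 (adjusted p = 0.025), a call lost under 5 of the other settings and without THAL-SNS-032 replicate 1 or 2. For KRCC1 on chromosome 2, the nearest upstream genes FABP1 and SMYD1 were at the floor in all libraries, and RGPD2, 201 kb downstream, was 2.06 below DMSO and differed from SNS-032 by -0.01 (adjusted p = 0.9729). CHRNA10 on chromosome 11 overlaps NUP98, a nucleoporin on the same strand, which had 17.5, 19.7 and 17.8 FPKM with THAL-SNS-032, 11.9, 21.6 and 19.7 under SNS-032 and 71.5, 81.7 and 87.9 in DMSO. NUP98 was 2.07 below DMSO and differed from SNS-032 by 0.09 (adjusted p = 0.7522), where CHRNA10 was 2.19 above SNS-032. On median-centred libraries RAB4B, SNRPA, GAS7 and NUP98 were called above SNS-032, by 0.46, 0.34, 0.26 and 0.17, where 51.2% of tested genes were called higher and 23.1% lower. Whether reads were assigned by strand is not given in the sources used here, so reads of MGP and C12orf60, and of CXCR6 and the opposite gene FYCO1 (1.95 below DMSO with THAL-SNS-032), could be mixed, as could those of CHRNA10 with NUP98 and of MIA with MIA-RAB4B.

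**Figure D3:**
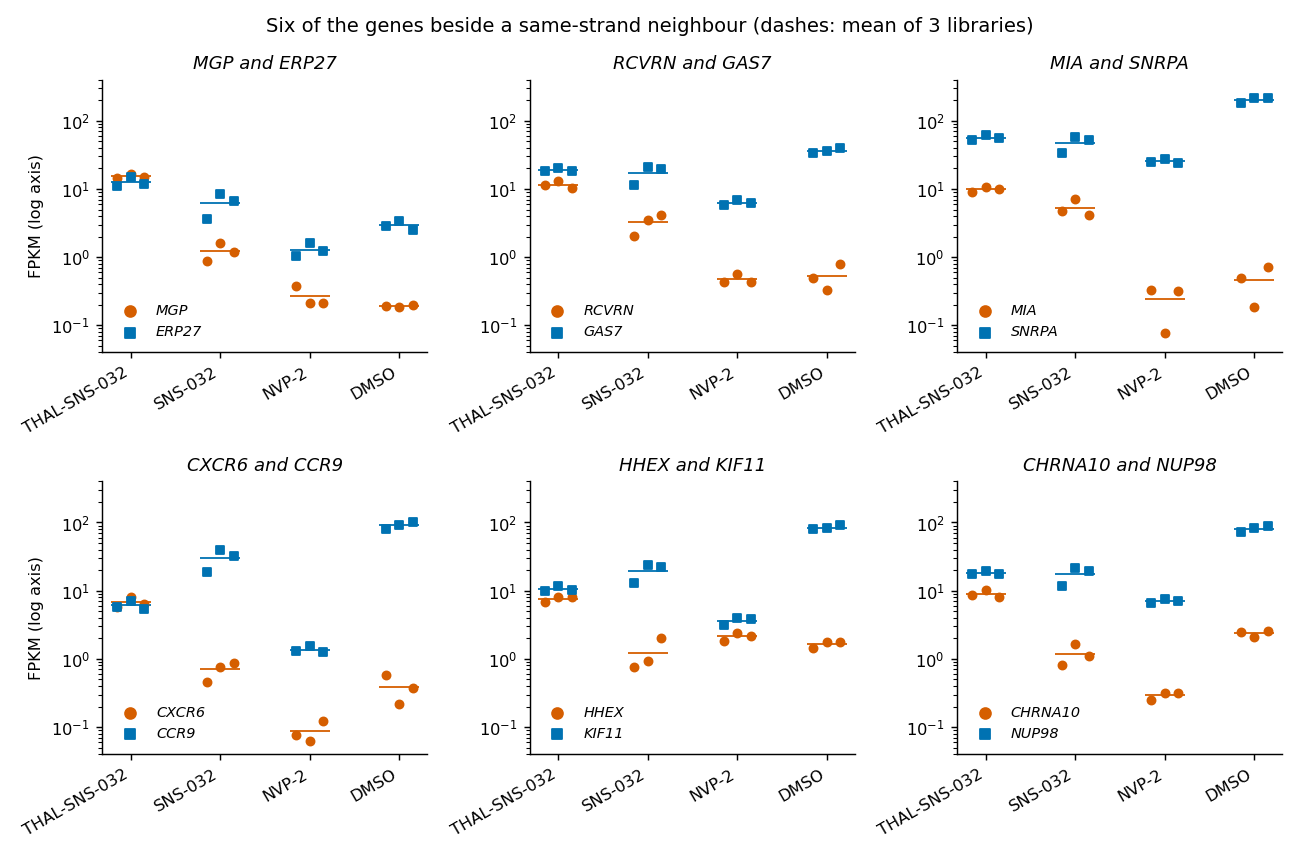
FPKM on a log axis for 6 of the genes (circles) and a neighbour on the same strand (squares), by group from THAL-SNS-032 to DMSO, with dashes at the mean of 3 libraries. ERP27 lies highest with THAL-SNS-032, as MGP does, while GAS7, SNRPA, CCR9, KIF11 and NUP98 lie highest in DMSO.

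Relatives of each gene were followed from lists of family members, partners and regulators. Their counts against DMSO stand beside 94.8% of all tested genes lower with THAL-SNS-032 on the deposited scale (median -1.90), and 57.2% higher and 29.2% lower on median-centred libraries. Against SNS-032 they stand beside 13.4% higher and 16.7% lower. For matrix Gla protein, 8 of 27 vitamin K and calcification genes were above the filter. With THAL-SNS-032, 7 fell against DMSO and 1 was not called (median -1.98), which became 4 higher and 4 lower on median-centred libraries, and none of the 8 was called against SNS-032 by limma, although 4 had an unadjusted p under 0.05. GGCX, the carboxylase that activates MGP, had 1.54, 1.61 and 1.41 FPKM with THAL-SNS-032 against 6.52, 5.65 and 6.73 in DMSO, 1.53 lower on the deposited scale and 0.73 higher after centring. VKORC1, which recycles vitamin K, was 2.73 lower than DMSO, at 18.5 FPKM with THAL-SNS-032 against 129 in DMSO, and stayed lower after centring.

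Among the neuronal calcium sensors and partners of recoverin, 10 of 22 were above the filter, and against DMSO 1 rose and 9 fell with THAL-SNS-032 (median -1.88), which became 7 higher and 3 lower on centred libraries. The riser was GUCA1B, a guanylate cyclase activator of photoreceptors and a relative of recoverin. It had 1.98, 1.86 and 2.13 FPKM with THAL-SNS-032, 5.15, 9.68 and 6.96 under SNS-032, 0.243, 0.297 and 0.273 with NVP-2, and 0.527, 0.766 and 0.753 in DMSO. It was 0.83 above DMSO with THAL-SNS-032 (adjusted p = 0.0001717, limma) and 1.43 below SNS-032 (adjusted p = 1.401e-05), so THAL-SNS-032 and SNS-032 stand in the opposite order to RCVRN. HPCAL1, another member of the family, was 2.04 below DMSO on the deposited scale, with 0.22 above after centring, and 0.51 above SNS-032 (adjusted p = 0.03623, lost without any 1 of the THAL-SNS-032, NVP-2 or DMSO libraries, with no filter, with equal ERCC medians and with only the 6 libraries compared). GRK1, the kinase that recoverin inhibits, was at the floor in all 12 libraries.

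For MIA, 15 of the 17 relatives and cargo export genes in the table were above the filter, and all 15 fell against DMSO on the deposited scale (median -2.25), as did 94.8% of tested genes, with 7 higher and 5 lower after centring. Against SNS-032, 3 rose, 4 fell and 8 were not called. MIA3, the family member that loads collagen for export, had 2.34, 2.57 and 2.27 FPKM with THAL-SNS-032 and 18.1, 18.2 and 20.1 in DMSO, 2.54 lower (adjusted p = 1.183e-09, limma).

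Of 23 chemokine receptor and CXCL16 genes in the table besides CXCR6, 5 were above the filter, and all 5 fell with THAL-SNS-032 against DMSO (median -2.87, beside -1.90 over all tested genes), 4 of them also after centring, where 29.2% of tested genes were lower. CXCR4, the receptor for CXCL12 and the most abundant of them, had 50.6, 61.4 and 51.8 FPKM with THAL-SNS-032, 233, 403 and 388 under SNS-032, 6.46, 7.44 and 6.25 with NVP-2, and 427, 506 and 519 in DMSO. It was 2.58 below SNS-032 (adjusted p = 6.589e-07, limma) and 3.12 below DMSO, against 2.18 and 2.47 above for CXCR6. ADAM10, a protease that sheds CXCL16, was 2.87 below DMSO, at 7.45 FPKM with THAL-SNS-032 and 60.9 in DMSO, and 0.54 above SNS-032 (adjusted p = 0.03174), a call lost without any 1 of the THAL-SNS-032 libraries or DMSO replicate 2, with no filter (0.0611), with equal ERCC medians (0.0832) and with only the 6 libraries compared (0.215). CXCL16 itself stayed at or below 0.414 FPKM in every library.

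Of 35 homeobox and LIM-domain factors of blood cells, 16 were above the filter, and against DMSO 15 fell and 1, CUX1, was not called with THAL-SNS-032 (median -2.14, beside -1.90 over all tested genes), with 8 higher and 6 lower after centring. Against SNS-032, 1 rose, 4 fell and 11 were not called. The riser was PKNOX1, a cofactor of HOX proteins, with 5.97, 7.38 and 6.19 FPKM with THAL-SNS-032 against 2.64, 4.01 and 3.62 with SNS-032, 0.77 higher (adjusted p = 0.001582, limma). LMO2, the oncogene whose mouse counterpart acts on Hhex, had 1.03, 1.42 and 1.14 FPKM with THAL-SNS-032, 2.37, 4.47 and 3.63 under SNS-032 and 9.05, 11.3 and 9.48 in DMSO. LMO2 was 1.01 below SNS-032 (adjusted p = 0.0004411) and 2.31 below DMSO, where HHEX was above both. On median-centred libraries LMO2 differed from DMSO by -0.057 (adjusted p = 0.533).

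Of 24 nicotinic receptor and acetylcholine genes, 6 were above the filter, and all 6 fell against DMSO with THAL-SNS-032 on the deposited scale (median -1.54), as did 94.8% of tested genes, and 5 of them were higher after centring, as were 57.2%. Against SNS-032, 2 rose and 4 were not called. The pair that rose were CHRNA9, the partner subunit of CHRNA10, and CHRNA3, a subunit of ganglionic receptors. CHRNA9 had 2.06, 2.92 and 2.09 FPKM with THAL-SNS-032, 0.364, 1.09 and 0.816 under SNS-032, 0.153, 0.268 and 0.194 with NVP-2, and 5.27, 5.42 and 3.95 in DMSO. It was 0.95 above SNS-032 (adjusted p = 0.0006239, limma) and 0.81 below DMSO (adjusted p = 0.0002556). CHRNA3 was 0.88 above SNS-032 (adjusted p = 0.0007194), at 4.75 FPKM with THAL-SNS-032 against 2.16 with SNS-032. On the deposited scale the order of the 4 groups for CHRNA9 was DMSO, THAL-SNS-032, SNS-032, NVP-2. There it shares with CHRNA10 the step between THAL-SNS-032 and SNS-032 and not the place of DMSO. After centring CHRNA9 was 1.45 above DMSO with THAL-SNS-032 (adjusted p = 5.29e-07, limma), so this contrast depends on the scale.

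**Figure D4:**
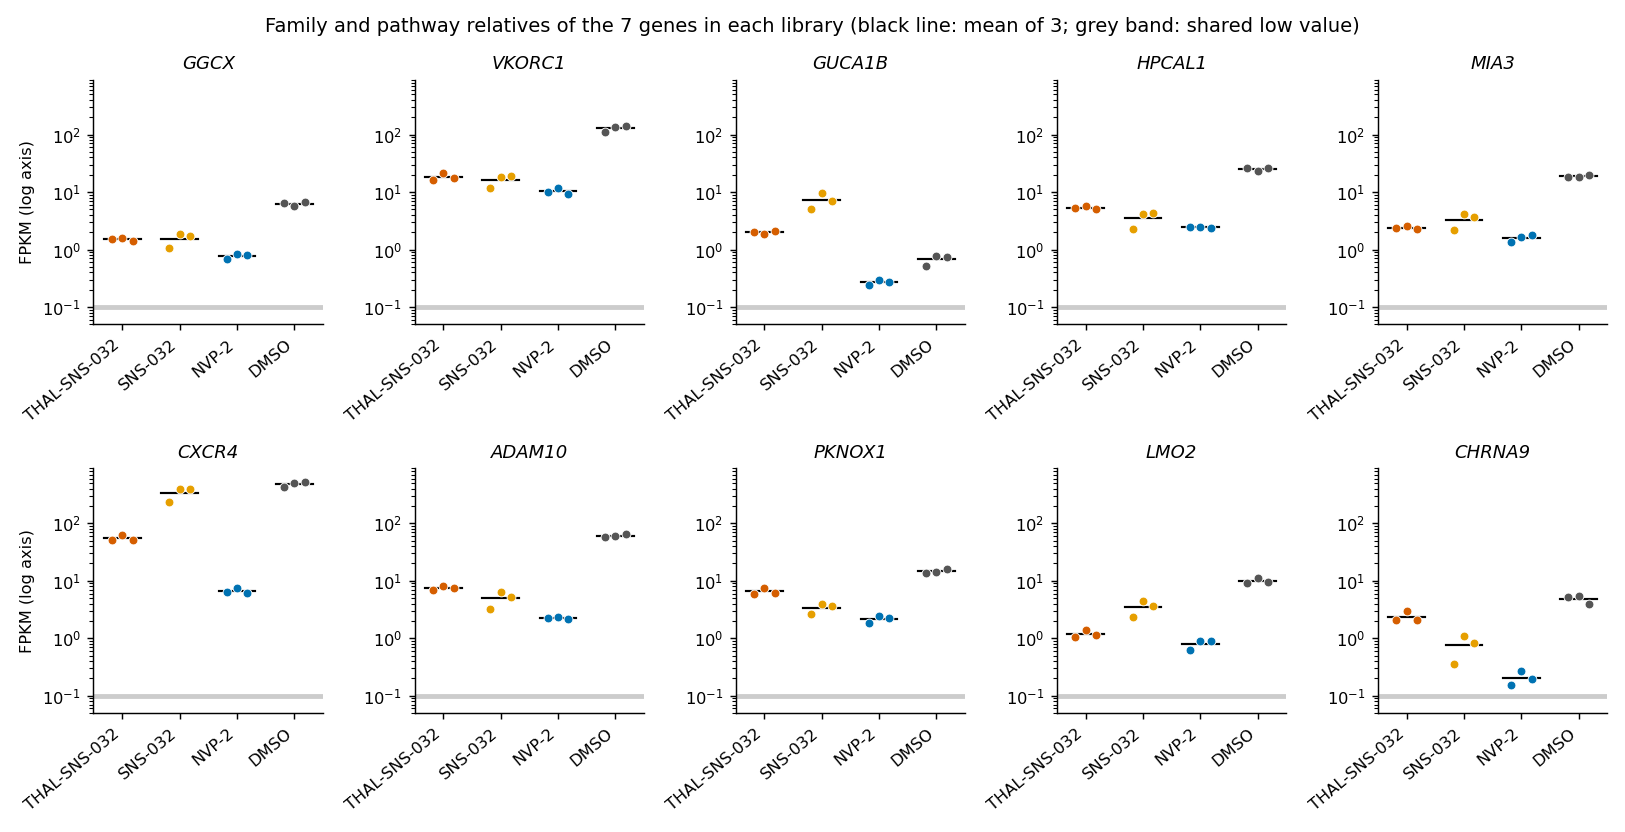
FPKM on a log axis for 10 relatives of the 7 genes in the 12 libraries, by group from THAL-SNS-032 to DMSO, with a black line at the mean of 3 and a grey band at the shared low value. GUCA1B is highest with SNS-032, the other 9 are highest in DMSO, and PKNOX1 and CHRNA9 are higher in THAL-SNS-032 libraries than in SNS-032 libraries.

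Several of the 7 are known from other cell types, whose markers were read beside them. Of 14 photoreceptor markers, 11 had means under 1 FPKM in every group, and their summed level was 7.17 to 8.86 FPKM with THAL-SNS-032, 5.03 to 7.10 with SNS-032, 4.21 to 4.93 with NVP-2 and 23.7 to 27.2 in DMSO. Arrestin (SAG) was at or below 0.229 FPKM in every library. Of 13 fibroblast, cartilage and smooth muscle markers, 11 were under 1 FPKM in every group, with sums of 4.58 to 5.86 FPKM with THAL-SNS-032, 5.35 to 8.39 with SNS-032, 2.41 to 2.70 with NVP-2 and 7.42 to 8.93 in DMSO. ACTA2, smooth muscle actin, rose from this list, by 0.57 over DMSO (adjusted p = 0.002662, limma), and was 0.81 below SNS-032 (adjusted p = 0.001337). COL1A1, the fibroblast collagen, was at 0.221 to 0.256 FPKM with THAL-SNS-032 and 0.378 to 0.510 in DMSO. Of 8 melanocyte markers, 7 were under 1 FPKM in every group, with sums of 1.84 to 2.57 FPKM with THAL-SNS-032, 1.12 to 1.48 with SNS-032, 1.01 to 1.39 with NVP-2 and 1.94 to 2.38 in DMSO. Of 15 natural killer and effector T-cell markers, 13 were, with sums of 2.64 to 2.998 FPKM with THAL-SNS-032, 2.20 to 3.67 with SNS-032, 1.998 to 2.19 with NVP-2 and 10.0 to 11.3 in DMSO. Of 10 hair cell and neuron markers, 8 were, with sums of 28.6 to 34.8 FPKM with THAL-SNS-032, 21.6 to 34.1 with SNS-032, 23.2 to 26.6 with NVP-2 and 80.1 to 103 in DMSO. These sums rest on the 2 tested markers of that list, which were both called lower with THAL-SNS-032 than in DMSO. Sums under those of DMSO stand beside 94.8% of tested genes called lower with THAL-SNS-032.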

How the data were processed

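Per the submitters' processing notes, the authors used HISAT, Cufflinks 2.0.0 and hg19; the annotation and the strand setting are not given in the sources used here. Values in the deposited table are gene-level FPKM, scaled across libraries by the authors. How the spike-ins entered that scale is not given in the sources used here. The table holds no counts, so depth is unknown and no interval that needs it is given.

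Left out of the 23713 entries were 92 for ERCC and 2 repeated symbols. One limma 3.58.1 fit (R 4.3.3, with trend) of log2(FPKM + 1) over the 4 groups and 12 libraries, leaving 8 residual degrees of freedom, served 5 comparisons (two-sided). Genes averaging at least 1 FPKM were tested, and a Benjamini-Hochberg adjusted p under 0.05 over all 11381 was a call. The filter kept all 7 genes, but MGP and CXCR6 (means of 0.565 and 0.391 FPKM over the 9 other libraries) passed only through THAL-SNS-032 and are given without a test, a choice made after their values were seen. RCVRN and MIA were under 1 FPKM on average with NVP-2 and in DMSO, so their test could hardly show a fall. With 3 against 3 libraries an exact permutation test cannot go below 0.1, so none is given.

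The 7 genes and all lists were chosen with earlier results of these data known. Named genes are the 7, their nearest protein-coding neighbours, the 3 most similar profiles each, and from each list up to 3 called genes with the largest change each way, the most abundant gene and partners of a member's product. GUCA1B, HPCAL1, PKNOX1, LMO2, CHRNA3, MIA3, ARHGDIB, C12orf60 and the low markers were picked for printing after values were seen. As alternatives the pseudocount was 0.1 or 5, the filter was dropped or raised to 5 FPKM, and libraries were centred on their medians, quantile-normalized or set to equal ERCC medians. The fit was also run without trend, with robust, on the 6 libraries compared, with the replicate number as a block, and leaving out each library in turn. Promoter windows are RefSeq's (GRCh38.p14). Figures were drawn with matplotlib 3.10.9.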

Additional observations from a re-analysis of the deposited data

How the results depend on the processing

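With THAL-SNS-032 the 6 genes other than KRCC1 stood above DMSO, and all 7 above SNS-032 and NVP-2, under every alternative that gave a value and without any 1 library. The genes were chosen in these same libraries for their THAL-SNS-032 level against DMSO or SNS-032. Their order was thus largely set by the choice, and nothing is read from its persistence. A mean of 5 FPKM left only KRCC1 of the 7, with 1 gene called lower with NVP-2.

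Scaling turned many directions against DMSO on the log2(FPKM + 1) scale. It came after 1 was added, which compresses falls to low levels, so a turn of a low gene need not be one in FPKM. C12orf60 turned with THAL-SNS-032 at an FPKM ratio to DMSO of 0.0968. RCVRN, MIA and CXCR6 were under 1 FPKM on average with NVP-2 and in DMSO. On median-centred and on quantile-normalized libraries, genes called higher and lower were 6515 and 3319, and 5228 and 4456, with THAL-SNS-032 against DMSO; 5989 and 3537, and 4726 and 4700, with SNS-032 against DMSO; 6789 and 3198, and 5365 and 4393, with NVP-2 against DMSO. With THAL-SNS-032 against NVP-2 they were 3343 and 4327, and 3540 and 4050. Against SNS-032, 5822 were higher on centred libraries, and 5912 were higher and 2938 lower after quantile normalization. For NVP-2 against DMSO, of the 5 members tested, 4 and 2 were called higher, and 1 and 1 lower. Centring moved KRCC1 with THAL-SNS-032 against DMSO to 0.34 (quantile 0.28), CHRNA10 with SNS-032 to 1.54 (0.65), CHRNA10 with NVP-2 to 1.58 (0.14), RCVRN with NVP-2 to 2.92 (0.92), MIA with NVP-2 to 2.74 and CXCR6 with NVP-2 to 2.62. Among the other genes named it moved ERP27 with NVP-2 to 2.17 (1.25), GAS7 with NVP-2 to 0.60 (0.66) and, with THAL-SNS-032 against DMSO, ARHGDIB to 1.24 (0.11), GAS7 to 1.37 (1.26), SNRPA to 0.41, RAB4B to 1.46 (1.30), FYCO1 to 0.31 (0.020), RGPD2 to 0.20 (0.17), NUP98 to 0.19 (0.0029), GGCX to 0.73 (0.29), HPCAL1 to 0.22 (0.21), PKNOX1 to 1.202 (1.08), CHRNA9 to 1.45 (0.91), CHRNA3 to 1.10 (0.93) and C12orf60 to 0.54.

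Equal ERCC medians left 803 genes higher and 1166 lower with THAL-SNS-032 against SNS-032 and 43 lower against NVP-2. No filter gave 693 higher with THAL-SNS-032, 478 higher with SNS-032 and 19550 lower with NVP-2 against DMSO, over more genes tested. A mean of 5 FPKM, with fewer genes tested, gave 42, 61 and 21 higher with THAL-SNS-032, SNS-032 and NVP-2 against DMSO and 51 lower with THAL-SNS-032 against NVP-2, which a pseudocount of 5 put at 73. Only the 6 libraries of a pair gave 507 higher against SNS-032, 281 lower against NVP-2 and 1 member, HHEX, higher with NVP-2 against DMSO (adjusted p = 0.0433). The cause was not tested for these.

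With the replicate number as a block, 2308 genes were higher with THAL-SNS-032 against SNS-032; no other count over all genes or the members moved by over 1.5 times. Of the list counts against SNS-032, 1 vitamin K and calcification gene was then higher in place of 0, and 3 homeobox and LIM-domain factors in place of 1. The labels give equal numbers and state no pairing. The deviations of 18 same-numbered pairs of libraries correlated from -0.15 to 0.17 (median 0.04), and 1 was over 0.1. Those of 36 pairs with different numbers correlated from -0.22 to 0.13 (median -0.005), and 2 were over 0.1. A weak pairing is neither shown nor excluded by these values.

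Leaving out 1 library in turn gave 139 to 162 higher and 10694 to 10859 lower with THAL-SNS-032 against DMSO, 614 to 2765 and 1479 to 3424 against SNS-032, and 6562 to 9164 and 74 to 232 against NVP-2. It gave 158 to 247 and 10689 to 10831 with SNS-032 against DMSO, and 47 to 54 and 11027 to 11065 with NVP-2 against DMSO, with 0 members higher and 2 lower. A group left with 2 libraries borrows the spread of all groups. Depth limits the low values: it is unknown, and levels near the floor of about 0.1 FPKM cannot be ordered.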
